A study of Mus musculus with 12 samples.

Results

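The Ifi200 genes are a mouse gene family on chromosome 1 whose proteins, the PYHIN proteins, carry a pyrin domain for protein contacts or a HIN domain that binds DNA, and often both. They are known as interferon-inducible nuclear or cytosolic proteins, and several of them, with their relative Aim2, take part in sensing DNA, in inflammasome control and in restraining growth in myeloid cells. Interferon acts through its receptor and transcription factors that bind the interferon-stimulated response element in the promoters of such genes. The genes described here were taken by name from the deposited values: Ifi203, Ifi204, Ifi205, Mnda, Mndal and Pyhin1, which are 6 of 23997 gene names. All 6 reached at least 1 FPKM (fragments per kilobase of transcript, scaled to the fragments mapped in the library) in a library, so none was skipped.

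RNA-seq was performed on bone marrow-derived macrophages (BMDMs), cells grown from bone marrow for 7 days with 10 ng/ml M-CSF, from male C57BL/6 mice aged 8 to 10 weeks. WT and Pim1-/- BMDMs were left untreated or were treated with LPS, a bacterial agonist of TLR4, at 100 ng/ml for 4 h, which gave 4 groups of 3 libraries. The Pim1-/- mice carry a CRISPR/Cas9 deletion of exons I to V of Pim1 in the germline, so the deletion was present throughout differentiation. The labels do not say whether replicates came from separate mice or cultures, and p-values therefore measure only the spread between these libraries, which may be technical. The deposited value of the targeted gene covers the gene as a whole, with no value per exon, and does not show which exons the remaining reads came from. It was 22.9 ± 1.80 FPKM (SD, n = 3) in untreated WT and 8.73 ± 0.752 in untreated Pim1-/- BMDMs, and 645.4 ± 17.8 and 218.9 ± 15.6 after LPS.

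All 9 macrophage markers checked (Adgre1, Csf1r, Cd68, Itgam, Mertk, Cd14, Lyz2, Fcgr1 and Mrc1) were at 1 FPKM or more in every group. Their summed level was lower in Pim1-/- than in WT BMDMs, at 14411 to 15330 against 27943 to 29994 FPKM untreated and 15948 to 17813 against 30856 to 31354 FPKM after LPS. Most of this sum was Lyz2, with means of 26302 FPKM in untreated WT and 13297 FPKM in untreated Pim1-/- BMDMs. Single markers ranged from 29.2% (Fcgr1) to 95.7% (Cd14) of the WT mean untreated, and Cd14 overlapped between genotypes there. Of 32 markers of 7 other cell types found in the files, 26 stayed under 1 FPKM in every library. The sum of all 32 was 5.44 to 6.00 FPKM in untreated WT and 5.90 to 6.36 FPKM in untreated Pim1-/- BMDMs. After LPS it was 83.5 to 88.4 FPKM in WT and 22.8 to 26.3 FPKM in Pim1-/- BMDMs. Most of the sum after LPS was Lcn2, which was at 0.151 FPKM or less in untreated libraries. The sum of all FPKM was 467484 to 489710 in untreated WT, 452511 to 472138 in untreated Pim1-/-, 837585 to 849323 in LPS-treated WT and 713307 to 743912 in LPS-treated Pim1-/- libraries. The part of these differences in the results below was not tested.

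The 6 genes lie within 400.9 kb of chromosome 1 (GRCm38, GENCODE M21, chr1:173630917-174031810), 5 on the minus strand and Pyhin1 on the plus strand. The annotation names Mnda Ifi211 and Pyhin1 Ifi209. Because interferon-induced genes often carry the interferon-stimulated response element close to their start, promoter sequences of the members were searched on both strands for its core, written GAAA, then any pair of bases, then GAAA, and the stretch that holds it is shown for 4 members with, in Pyhin1, the most similar letters. RefSeq (GRCm38.p6) gives promoters, from 250 bases before to 50 bases after the start site, for 5 of the 6 members, among them Ifi203 and Mndal with 2 promoters each. Each stretch below is 55 bases on the strand of its gene and ends before the start site, with the core in capitals.

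Ifi203 (chr1:173942493-173942547, minus strand): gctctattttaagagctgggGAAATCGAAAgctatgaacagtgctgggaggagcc

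Mndal (chr1:173880189-173880243, minus strand): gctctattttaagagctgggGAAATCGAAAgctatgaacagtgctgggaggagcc

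Mnda (chr1:173913049-173913103, minus strand): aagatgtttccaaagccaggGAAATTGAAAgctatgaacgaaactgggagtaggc

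Ifi205 (chr1:174031855-174031909, minus strand): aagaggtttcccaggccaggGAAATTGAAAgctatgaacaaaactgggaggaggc

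Pyhin1 (chr1:173630760-173630814, plus strand): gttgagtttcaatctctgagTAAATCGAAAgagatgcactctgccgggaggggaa

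The stretches of Ifi203 and Mndal were identical in 55 of 55 bases, and those of Ifi205 and Mnda in 50 of 55. Between these pairs the likeness was lower, with 37 identical bases for Ifi203 and Ifi205. The capitals begin 35 bases before the RefSeq start site in Ifi203, 36 in Mndal, 37 in Mnda and 134 in Ifi205. The promoter of Ifi205 holds a second match, GAAAGTGAAA, on the other strand 23 bases after the start site. For Ifi205 this start site is 174031755, whereas GENCODE puts the 5' end of the gene further upstream, at 174031810. The distance of 134 bases therefore depends on the annotation. In Pyhin1 the letters 79 bases upstream differ from the core of Ifi203 by G1T, counted from 1 at the first capital, so the pattern was not met in this window. The second promoter of Mndal holds a match on the other strand 54 bases upstream, and that of Ifi203 holds none. Thus 4 of 5 members with a promoter held the core, against 3.44% of 32851 promoters of the same length (3.99% of 27025 genes). Among other PYHIN genes 5 of 7 held it (Ifi206, Ifi207, Ifi208, Ifi213 and Ifi214), and Aim2 and Ifi202b did not. The palindrome TTCNNNGAA, known from promoters of cytokine-responsive genes, was in no member's promoter and in 8.30% of all promoters. An NF-kappaB motif was found in the promoter of Pyhin1 and the second promoter of Ifi203, and in 8.46% of all. These are matches of letters, not measured binding.

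The family grew out of gene duplication, and its transcripts share sequence. Of the 50-base windows of the transcript taken for Mnda, 72.9% were identical to a stretch in the transcript of another gene, mostly of Ifi205 or Ifi204. This share was 49.5% for Ifi205, 35.1% for Pyhin1, shared mainly with Ifi214, 30.2% for Ifi204, 27.2% for Mndal and 10.7% for Ifi203. At 100 bases it fell to 56.9% for Mnda, 41.5% for Ifi205 and 3.31% for Ifi203. In GENCODE, Mndal also overlaps Ifi203 and Mnda on the same strand. How reads that fit several genes were divided is not given in the sources used here, and the levels of these genes, Mnda and Ifi205 above all, are uncertain to that extent.

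In untreated WT BMDMs the summed level of the 6 genes was 66.0 ± 3.05 FPKM (SD, n = 3), and Mndal and Ifi204 made up most of it. Mndal, a nuclear protein similar to Mnda, was measured at 22.2, 23.3 and 24.8 FPKM and Ifi204, a DNA-binding protein linked to the innate response to cytosolic DNA, at 21.3, 24.4 and 22.2 FPKM. The values of these 2 genes overlapped, Mndal being higher in 2 of 3 libraries. Below them, without overlap between neighbours in this order, came Ifi203, Mnda, Pyhin1 and Ifi205. Untreated Pim1-/- BMDMs had the same order at a summed level of 31.8 ± 1.31 FPKM. After LPS the sum was 4553 ± 108 FPKM in WT and 2868 ± 166 FPKM in Pim1-/- BMDMs, which is 0.530 to 0.554% and 0.375 to 0.407% of all FPKM in these libraries, against 0.0130 to 0.0145% and 0.00672 to 0.00720% without LPS.

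**Figure D1:**
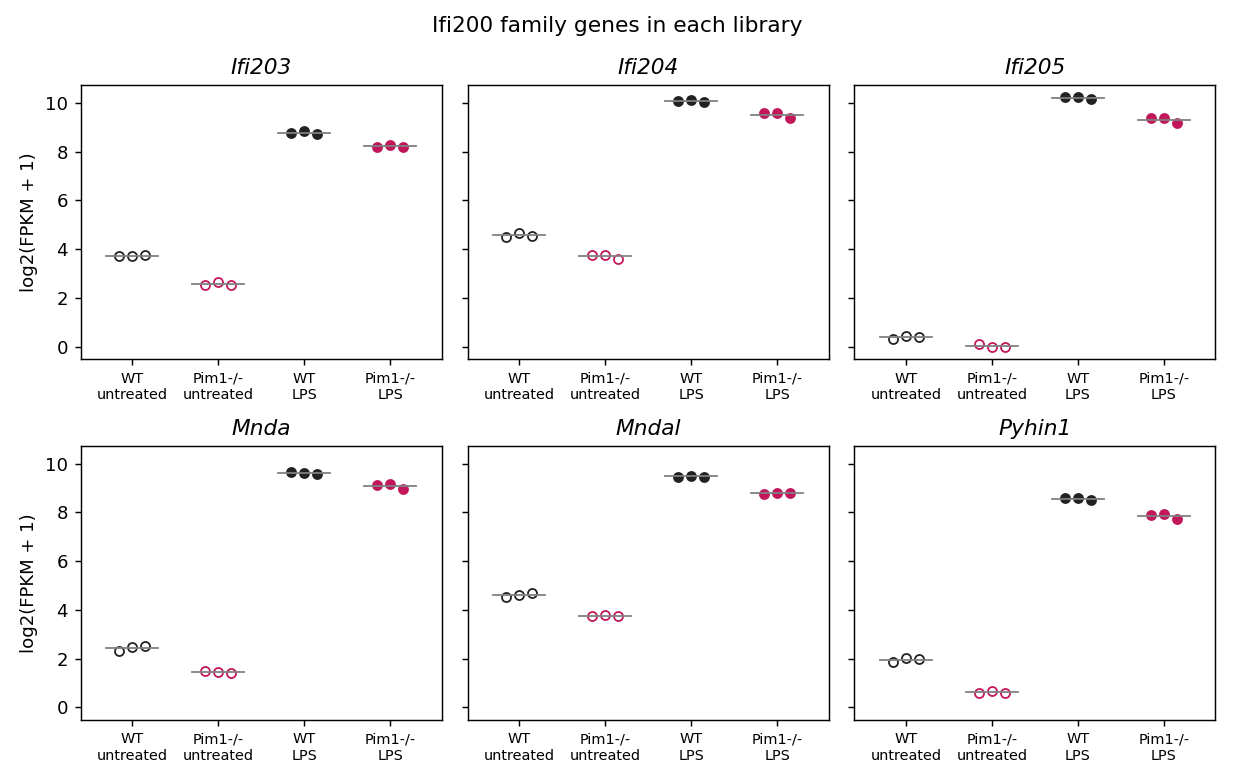
Level of each Ifi200 gene in each of the 12 libraries, as log2(FPKM + 1) on the vertical axis, with the 4 groups on the horizontal axis (open circles untreated, filled circles LPS for 4 h, black WT, magenta Pim1-/-) and grey lines for the mean of 3 libraries. In all 6 genes the LPS-treated libraries lie far above the untreated ones, and at both conditions the 3 Pim1-/- libraries lie below the 3 WT libraries.

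To see how the family responded to LPS, treated and untreated BMDMs were compared within each genotype with limma on log2(FPKM + 1) across 10581 genes. Calls required a change above 2-fold, a false discovery rate (FDR, Benjamini-Hochberg) under 0.1 and p under 0.05. LPS raised all 6 genes in both genotypes. All were called higher, where 20.1% of genes were in WT and 14.6% in Pim1-/- BMDMs, and their median log2 fold change was 6.05 in WT and 6.52 in Pim1-/- BMDMs against 0.00 and −0.01 over all genes tested. Ifi205 was under 1 FPKM in every untreated library, so its passing the filter of 1 FPKM in at least 3 libraries already implied a rise. The other members passed that filter in their untreated WT libraries as well. The comparisons of the genotypes below use the same libraries.

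Ifi205, a nuclear family member linked to control of the inflammasome adaptor gene Pycard, changed most. In WT BMDMs it went from 0.242, 0.367 and 0.304 FPKM to 1189, 1192 and 1151 FPKM, and it became the most abundant of the 6. In Pim1-/- BMDMs it was listed at 0.0767, 0 and 0 FPKM without LPS and was 655.7, 662.4 and 568.4 FPKM after LPS. The treated libraries are far above the untreated ones in both genotypes, and the untreated Pim1-/- values lie at or near 0. Most low values in these libraries lay near whole fragments on a scale fitted to those values. On that scale the untreated Ifi205 values were estimated at 12.9, 20.9 and 18.9 fragments in WT and 4.97, 0 and 0 in Pim1-/- BMDMs. In untreated libraries 3 fragments would be 0.0463 to 0.0563 FPKM. The fitted log2 fold change, 9.82 ± 0.0584 (SE) in WT and 9.26 ± 0.0584 in Pim1-/- BMDMs, placed Ifi205 at rank 7 and rank 14 from the highest among all genes tested, and it depends on the pseudocount, with 11.5 and 12.3 for a pseudocount of 0.1.

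Mnda, named after the human myeloid cell nuclear differentiation antigen, rose from 3.98, 4.59 and 4.71 to 793.0, 789.5 and 751.3 FPKM in WT BMDMs. In Pim1-/- BMDMs it rose from 1.81, 1.71 and 1.62 to 559.3, 565.6 and 502.0 FPKM. These are ratios of means of 175.8 and 317.0, the largest after Ifi205 in WT. Pyhin1, a pyrin and HIN domain protein, rose from 2.67, 3.02 and 2.95 to 380.3, 387.5 and 357.5 FPKM in WT BMDMs, a ratio of 130.2. In Pim1-/- BMDMs it rose from 0.520, 0.574 and 0.502 to 237.6, 242.9 and 211.1 FPKM, a ratio of 433.2. Both genes went from under 5 to over 200 FPKM in every library.

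The 3 members that were already well expressed at rest rose by smaller factors. The ratio of means was 35.6 in WT and 59.7 in Pim1-/- BMDMs for Ifi203, a nuclear protein of the family, 47.4 and 60.8 for Ifi204, and 30.3 and 34.99 for Mndal. The fitted log2 fold changes of these genes lay between 4.86 and 5.81, and their ranks between 73 and 154 of 10581. With quantile normalization, which shifted the median of all genes to −0.17 in WT and −0.18 in Pim1-/- BMDMs, the 6 members kept a median rise of 5.41 and 6.14.

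LPS also changed the make-up of the family. The share of Ifi205 in the summed FPKM went from 0.459 ± 0.0765% to 25.9 ± 0.229% in WT and from 0.0800 ± 0.139% to 21.9 ± 0.599% in Pim1-/- BMDMs (SD, n = 3). Mndal fell in share from 35.5 ± 1.14% to 15.6 ± 0.133% in WT and from 39.5 ± 1.56% to 15.4 ± 0.975% in Pim1-/- BMDMs, although its level rose. The order of levels after LPS was Ifi205, Ifi204, Mnda, Mndal, Ifi203 and Pyhin1 in WT, and in Pim1-/- BMDMs Ifi204 came before Ifi205, with no overlap between neighbours in either group. The log2 ratio of Ifi205 to Ifi204 after LPS was 0.13 ± 0.03 in WT and −0.22 ± 0.01 in Pim1-/- BMDMs (SD, n = 3), positive in 3 of 3 and negative in 3 of 3 libraries. This comparison was chosen after the values were seen, and its two-sided exact permutation p of 0.1 is the smallest that 3 against 3 libraries can give.

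**Figure D2:**
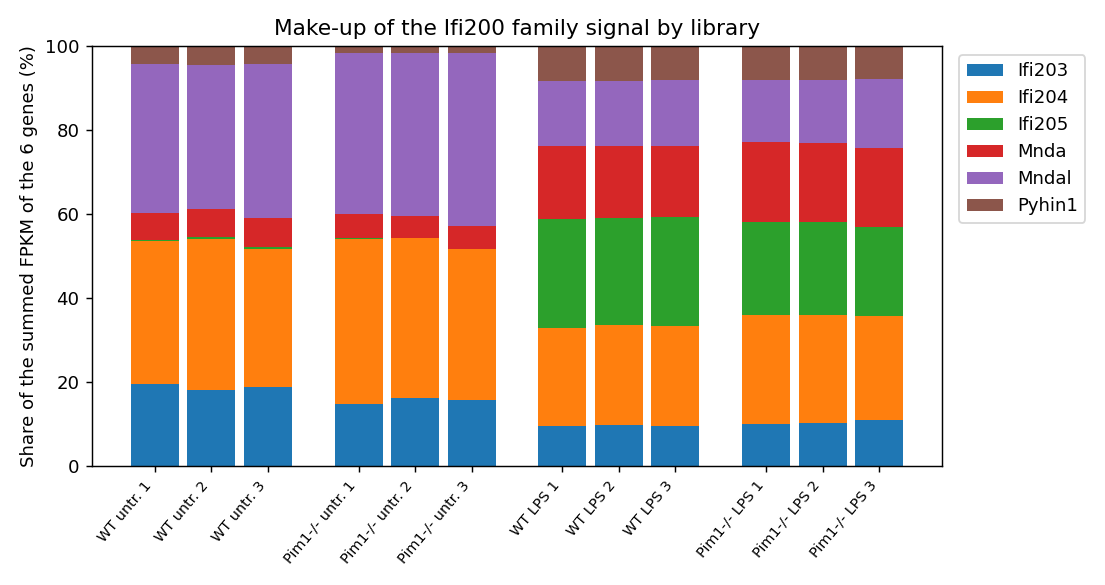
Share of each Ifi200 gene in the summed FPKM of the 6 genes (vertical axis, percent) in each of the 12 libraries (horizontal axis), as stacked bars. Ifi204 and Mndal fill most of the untreated bars, while after LPS Ifi205 takes 25.9% on average in WT and 21.9% in Pim1-/- BMDMs.

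To assess how loss of Pim1 altered the family, Pim1-/- and WT BMDMs were compared within each condition. Without LPS all 6 genes were lower in Pim1-/- BMDMs. The 3 values of each gene did not overlap between genotypes, as for 44.2% of genes tested with Pim1-/- lower, and all 6 had an FDR under 0.1 in this direction, also as for 44.2% of genes. Ifi205 counts among the 6, although it was under 1 FPKM in every untreated library and entered the tests only through its LPS-treated libraries. It was not tested when only the untreated libraries were fitted. The call with the 2-fold threshold was met by 2 of 6 members, Ifi203 and Pyhin1, and by 3.37% of genes, and the median log2 fold change of the 6 was −0.93 against −0.05 over all genes. In bulk RNA fewer cells that express a gene and less RNA per cell cannot be told apart.

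The fitted difference without LPS was largest for Pyhin1 and Ifi203. Pyhin1 in Pim1-/- BMDMs was at 18.5% of its WT mean, a log2 fold change of −1.34 ± 0.0563 (SE, limma adjusted p = 8.82e-12), or −2.24 with a pseudocount of 0.1. Ifi203, at 4.72, 5.34 and 4.76 FPKM in Pim1-/- and 12.1, 12.2 and 12.7 FPKM in WT BMDMs, was at 40.1%, with −1.17 ± 0.0465 (limma adjusted p = 4.76e-12). Both were more than 2-fold lower in every pair of libraries. Mnda was at 38.7% of WT and its log2 fold change of −0.9987 ± 0.0579 (limma adjusted p = 4.57e-10) stopped just short of the 2-fold threshold on the log2(FPKM + 1) scale, which understates changes at low levels. It passed the threshold at −1.06 without WT replicate 1, at −1.02 without Pim1-/- replicate 1 and at −1.32 with a pseudocount of 0.1.

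The 2 most abundant members at rest were lowered less. Ifi204 was at 12.6, 12.6 and 11.0 FPKM in Pim1-/- BMDMs, or 53.1% of WT, with a log2 fold change of −0.86 ± 0.0651 (limma adjusted p = 1.11e-08). Mndal was at 12.3, 12.8 and 12.6 FPKM, or 53.6% of WT, with −0.85 ± 0.0421 (limma adjusted p = 6.84e-11). Neither was near an overlap with WT, whose lowest values were 21.3 and 22.2 FPKM. For Ifi205 the fitted change of −0.35 ± 0.0584 (limma adjusted p = 6.58e-05) rests on a few fragments and became −1.73 with a pseudocount of 0.1.

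After LPS the 6 genes were again lower in Pim1-/- BMDMs, in a narrower range of 53.4% to 69.7% of WT. None reached the 2-fold threshold, which 5.15% of genes passed downward, while 6 of 6 had p under 0.05 and 6 of 6 had an FDR under 0.1 with limma, as did 43.4% of genes in this direction. No member overlapped between genotypes, as for 41.8% of genes. The median log2 fold change was −0.63 against −0.03 over all genes. With quantile normalization it was −0.42, and Ifi203 moved from −0.57 to −0.28, Mnda from −0.52 to −0.33 and Pyhin1 from −0.70 to −0.43, each still with an FDR under 0.1.

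Ifi205 was lowered most after LPS, to 53.4% of WT, with a log2 fold change of −0.91 ± 0.0584 (SE, limma adjusted p = 1.31e-09). Its lowest WT library, 1151 FPKM, lay far above its highest Pim1-/- library, 662.4 FPKM. Pyhin1, at 61.5% of WT, followed with −0.70 ± 0.0563 (limma adjusted p = 1.75e-08), and Mndal had 431.1, 445.8 and 441.3 FPKM against 706.5, 725.0 and 698.6 FPKM in WT BMDMs, or 61.9%, with −0.69 ± 0.0421 (limma adjusted p = 6.95e-10).

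The other 3 members kept about the same fraction of the WT level as each other. Ifi203 had 289.2, 304.4 and 291.3 FPKM against 435.9, 452.8 and 424.5 FPKM in WT BMDMs, or 67.4% of WT, with −0.57 ± 0.0465 (limma adjusted p = 2.24e-08). Ifi204 had 761.8, 769.2 and 664.2 FPKM against 1061, 1107 and 1055 FPKM, or 68.1%, with −0.56 ± 0.0651 (limma adjusted p = 1.33e-06). Mnda was at 69.7%, with −0.52 ± 0.0579 (limma adjusted p = 7.35e-07). The 95% intervals of these 3 log2 fold changes overlap widely, from −0.67 to −0.47 for Ifi203, −0.70 to −0.42 for Ifi204 and −0.64 to −0.40 for Mnda, and the differences between genes were not tested.

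**Figure D3:**
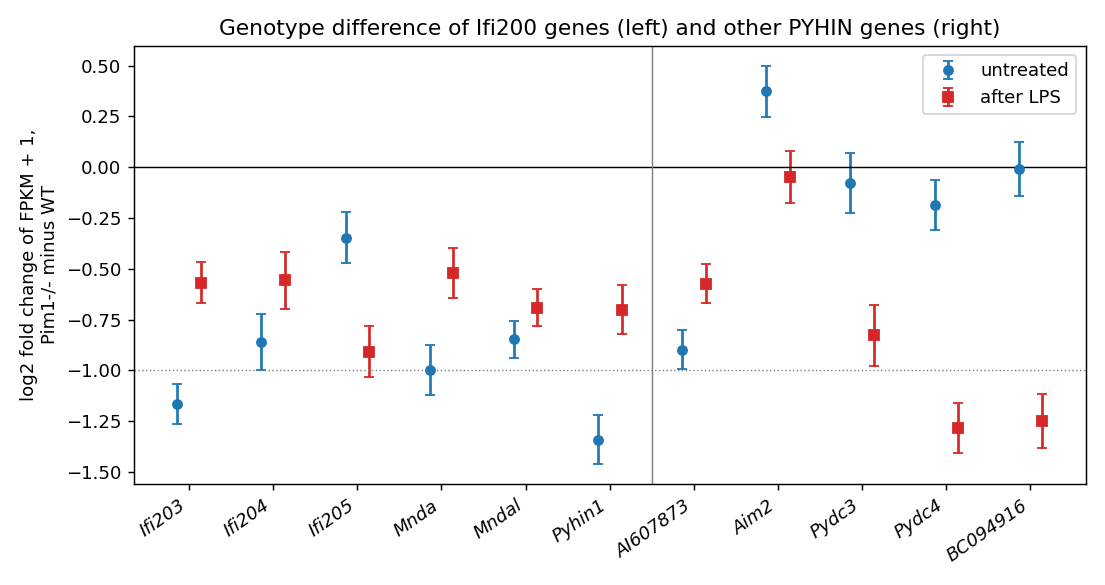
Genotype difference, Pim1-/- minus WT, as log2 fold change of FPKM + 1 on the vertical axis for the 6 Ifi200 genes and 5 other PYHIN genes on the horizontal axis, in untreated (blue circles) and LPS-treated BMDMs (red squares), with 95% intervals from limma and a dotted line at 2-fold lower. All 6 Ifi200 genes lie below 0 in both conditions, from −0.35 to −1.34 untreated and from −0.52 to −0.91 after LPS, while Aim2 lies at 0.37 and −0.05.

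Whether the response to LPS itself differed between genotypes was tested as the difference of the 2 responses, Pim1-/- minus WT. No member was called in this comparison, where 2.24% of genes were called higher and 4.43% lower, but Pyhin1 was called at 1.53 with a pseudocount of 0.1 and Ifi203 at 1.02 with quantile normalization. When the fold threshold was left out, at FDR under 0.1, 5 members had a larger response in Pim1-/- BMDMs, as did 32.7% of genes, and Ifi205 had a smaller one, as did 35.8%. The difference was 0.64 ± 0.0796 (SE) for Pyhin1, 0.60 ± 0.0658 for Ifi203, 0.48 ± 0.0818 for Mnda, 0.30 ± 0.0921 for Ifi204 and 0.16 ± 0.0595 for Mndal, with limma adjusted p of 5.38e-06, 1.44e-06, 0.000123, 0.00946 and 0.0319. Over the alternatives it ranged from 0.60 to 1.53 for Pyhin1, 0.57 to 1.02 for Ifi203, 0.44 to 0.80 for Mnda, 0.24 to 0.55 for Ifi204 and 0.12 to 0.47 for Mndal. In these 5 genes the Pim1-/- level was lower at both times, and nearer to WT after LPS than before it. For Ifi205 the difference was −0.56 ± 0.0825 (limma adjusted p = 2.88e-05) with a pseudocount of 1, which exceeds all its untreated values. The difference turned to 0.82 ± 0.241 (limma adjusted p = 0.00878) with a pseudocount of 0.1. By means, Ifi205 in Pim1-/- BMDMs was at 8.40% of WT untreated and 53.4% after LPS, nearer to WT after LPS as in the other 5. The untreated Pim1-/- values of Ifi205 rest on a few fragments, so its direction is not settled by these values.

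**Figure D4:**
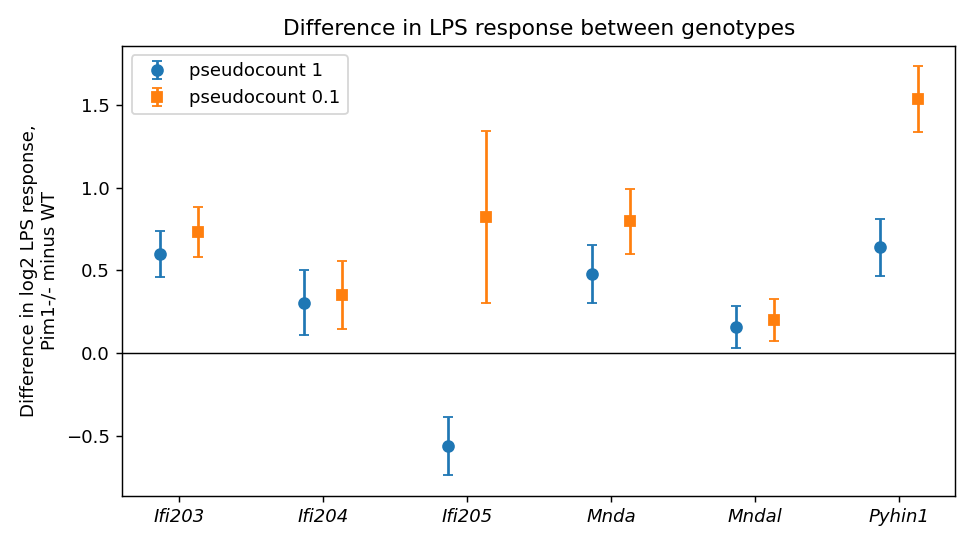
Difference in the log2 response to LPS, Pim1-/- minus WT (vertical axis), for each Ifi200 gene (horizontal axis) with a pseudocount of 1 (blue circles) and 0.1 (orange squares) and 95% intervals from limma. Ifi203, Ifi204, Mnda, Mndal and Pyhin1 lie above 0 with both, whereas Ifi205 moves from −0.56 to 0.82.

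Of the 8 other PYHIN genes listed, 6 were in the files and 5 were tested. Aim2, the cytosolic DNA sensor that assembles an inflammasome with the adaptor Pycard, differed from the Ifi200 members. It was at 15.3, 14.9 and 15.5 FPKM in untreated WT and 21.2, 20.6 and 18.4 FPKM in untreated Pim1-/- BMDMs, which was higher by a log2 fold change of 0.37 ± 0.0589 (limma adjusted p = 3.5e-05). After LPS its values were 124.3, 127.4 and 125.1 FPKM in WT and 126.6, 128.4 and 110.2 FPKM in Pim1-/- BMDMs, overlapping between genotypes, with a log2 fold change of −0.05 whose 95% interval ran from −0.17 to 0.08. AI607873, listed as Ifi207 in the annotation, was lower in both conditions, at 52.7% of WT without LPS and 67.1% after LPS. Its untreated means, 52.7 FPKM in WT and 27.8 FPKM in Pim1-/- BMDMs, were above those of each of the 6 members. After LPS its means were 386.0 and 259.1 FPKM. These are ratios of means of 7.32 in WT and 9.32 in Pim1-/- BMDMs, smaller than those of the members. Pydc3 and Pydc4, listed there as Ifi208 and Ifi213, and BC094916 were nearly silent without LPS, all under 0.2 FPKM. After LPS Pydc4 reached 25.7 ± 0.783 FPKM in WT and 9.96 ± 0.656 FPKM in Pim1-/- BMDMs (SD, n = 3), or 38.8% of WT, and was called lower, as was BC094916 at 24.9%. BC094916 reached 1 FPKM only in the LPS-treated WT libraries. It entered the tests through that group alone, so its call is partly set by the filter. Pydc3 was at 50.5% of WT after LPS and was not called. Ifi202b was under 0.3 FPKM in all libraries.

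Genes of pathways in which the family acts were counted from lists. Of 11 interferon signalling genes, 9 were lower in untreated Pim1-/- BMDMs at an FDR under 0.1 with limma and none higher, where 44.2% of all genes were lower and 34.6% higher. After LPS 8 were lower and 1 higher, against 43.4% and 37.6% of all genes. The higher one was Ifnb1, which encodes interferon beta, at 9.52, 7.80 and 8.17 FPKM in WT and 15.1, 16.95 and 14.5 FPKM in Pim1-/- BMDMs, without overlap. Irf7, an interferon-induced transcription factor, was at 22.9% of WT untreated and 48.4% after LPS, and Stat2 at 43.9% and 48.3%. The list was not lowered evenly, and Irf9 was at 67.5% untreated but at 99.1% after LPS, overlapping between genotypes there (limma adjusted p = 0.769). The median log2 fold change of this list was −0.53 without LPS and −0.37 after LPS.

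The other lists were counted in the same way, at an FDR under 0.1 with limma, and their counts stand against 44.2% of all genes lower and 34.6% higher without LPS and 43.4% lower after LPS. Of 8 DNA sensing genes, 7 were lower and 1 higher without LPS, and 7 were lower after LPS. The higher one was Mb21d1, which encodes the DNA sensor cGAS, at 173.8% of WT untreated and 69.9% after LPS. The nuclease gene Trex1 was at 32.6% and 53.1%. Of 7 inflammasome genes, 4 were lower and 2 higher without LPS, and 6 were lower after LPS. Pycard was at 128.8% of WT untreated and 32.1% after LPS, with log2 fold changes of 0.35 ± 0.0469 and −1.60 ± 0.0469 (limma adjusted p = 6.01e-06 and 1.78e-13). Il1b was at 52.1% of WT after LPS. The macrophage markers were lower too, 8 of 9 without LPS and 9 of 9 after LPS, with medians of −0.98 and −0.90.

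The genes whose 4 group means were most like those of each member, by the root mean square difference of centred log2(FPKM + 1), were taken from the genes tested, the members left out. Slfn8 and Parp14 were nearest to Ifi203, at 0.0485 and 0.0705. Ifih1 and Igtp were nearest to Ifi204 at 0.105 and 0.193, and Nfkbie and Trim30d nearest to Mndal at 0.0932 and 0.102. For the members with the steepest response the single nearest gene lay further off. The nearest were Ifi47 and Zbp1 for Pyhin1 at 0.190 and 0.197, and Ptgs2 and Il27 for Ifi205 at 0.200 and 0.232. For Mnda they were Il4i1 and Usp18 at 0.263 and 0.274. Igtp, the second gene for Ifi204, was about as far off as those of Pyhin1. Ptgs2, the inducible cyclooxygenase gene, went from 0.124 to 887.4 FPKM in WT BMDMs and from 0.129 to 598.3 FPKM in Pim1-/- BMDMs. Its untreated mean was thus not lower in Pim1-/- BMDMs, whereas that of Ifi205 was at 8.40% of WT. The pseudocount of 1 exceeds the untreated means of both genes, so this difference weighs little in the likeness. Among the members themselves Ifi203 and Ifi204 were most alike at 0.192, and Ifi205 and Mndal least alike at 2.31. These are likenesses over 4 groups and carry no test.

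Genes outside the PYHIN family were also counted around the cluster. Of 26 such genes annotated within 500 kb of the members and present in the files, 19 were olfactory receptor genes, 18 were listed at 0 in all libraries, and the highest value of any was 0.759 FPKM, so that none entered the tests.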

How the data were processed

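Per the labels, libraries were made with a stranded mRNA kit, and the submitters' processing notes name bcl2fastq 2.20.0.422, cutadapt 1.18, TopHat2 2.0.13, Cuffdiff 2.2.1 and mm10, whereas the methods of the study write rat rn5. The gene names are those of mouse. The authors deposited 1 value per gene and library, read here as FPKM from the use of Cuffdiff. The sources used here give neither the annotation nor the library normalization, nor how reads shared by several genes were treated. FPKM holds no counts, so fragments were estimated only for low values, of which 72.2 to 82.4% lay within 0.1 of a whole fragment. For a scale fixed beforehand 20% would be expected by chance. The scale of each library was fitted to these same values, and the share expected for a fitted scale was not measured.

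Genes at 1 FPKM or more in at least 3 libraries (10581) were fitted as log2(FPKM + 1) with limma 3.58.1 (R 4.3.3), 4 group means and a mean-variance trend, with Benjamini-Hochberg adjustment over all of them. The script was tested on simulated data. Fold changes on this scale understate changes of low genes. Replicate r across genes was 0.9958 to 0.9978. The correlation of same-numbered deviations over 3646 genes was 0.33, 0.37 and 0.46 between untreated genotypes and 0.43, 0.54 and 0.68 between treatments in Pim1-/- BMDMs. Same-numbered libraries thus shared part of their deviations, as found from the values and not from the labels. Correlations of different-numbered libraries were not computed, and what the numbers stand for is not given. The same-numbered correlation was 0.02, 0.37 and 0.19 between genotypes after LPS and −0.10, 0.14 and 0.19 between treatments in WT. The threshold of 10 FPKM in every library for this check was chosen after a looser one, set on group means, had given other values.

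The members and gene lists were chosen with earlier results of these data known, and synonyms in the list of other PYHIN genes were corrected after the files were read. One gene of the interferon signalling list is not reported here. Text names every member, tested PYHIN relatives, up to 4 genes of each other list, the 2 nearest profiles and Pim1. Alternatives were a pseudocount of 0.1, no filter or one of 5 FPKM, median-ratio and quantile scaling, only the groups compared, the replicate number as a block, no trend, an FDR under 0.05 without a fold threshold, and leaving out each library. Positions and transcripts came from GENCODE M21, promoters from RefSeq. Python 3.11.15, pandas 2.3.3, scipy and matplotlib 3.10.9 were used.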

Additional observations from a re-analysis of the deposited data

Results flagged for a closer look

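The response to LPS differed between genotypes in each of the 6 Ifi200 genes by limma's test of the difference itself, Pim1-/- minus WT on the log2(FPKM + 1) scale at an FDR under 0.1, as did 32.7% of all genes upward and 35.8% downward. None of the 6 passed the 2-fold threshold. The difference was 0.60 for Ifi203 (0.5979), 0.30 for Ifi204 (0.3049), 0.48 for Mnda (0.4773), 0.16 for Mndal (0.1568) and 0.64 for Pyhin1 (0.6387). For Ifi205 it was −0.56 (−0.5603), and this one changed sign with a smaller pseudocount.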

How the results depend on the processing

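Of 449 recomputed fold changes of members, 441 kept their direction and their side of the threshold, 7 passed the 2-fold threshold newly, and 1 reversed: Ifi205 in the difference in LPS response, from −0.56 to 0.82 with a pseudocount of 0.1; a pseudocount of 1 exceeds its untreated level. With that pseudocount 4 members were called lower in untreated Pim1-/- BMDMs and 1 (Pyhin1, 1.53) was called higher in the difference in LPS response. Quantile normalization also called 1 there (Ifi203, 1.02). At an FDR under 0.05 with no fold threshold 6 members were lower untreated, 6 lower after LPS and 5 higher in the difference. The untreated count includes Ifi205, which entered the tests only through its LPS-treated libraries. Leaving out each library gave 2 to 3 members called untreated and the same counts as with all libraries elsewhere. With the replicate number as a block, for a possible pairing of libraries, 2 members were called lower untreated, 0 after LPS and 6 higher in both LPS responses, and it changed no call of a member. Over all genes, a pseudocount of 0.1 gave 717 instead of 371 higher after LPS, 583 instead of 357 lower untreated and 510 instead of 237 higher in the difference. Without the fold threshold, lower and higher counts were 4412 and 3782 after LPS, 4439 and 3465 untreated, 4705 and 4748 for LPS in WT, 4508 and 4446 in Pim1-/- and 3520 and 3137 for the difference. Quantile normalization turned the split of LPS calls in WT from 1556 lower and 2130 higher to 1807 and 1644. FPKM without counts limits precision at low levels, above all for untreated Ifi205.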
